A study of Mus musculus with 12 samples.

Results

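The sliding clamp PCNA and the protein machines that put it on DNA and take it off were followed in cultured mouse neural stem cells (NSCs) through the messenger RNAs of 9 genes. The genes were the 5 subunits of replication factor C (*Rfc1*, *Rfc2*, *Rfc3*, *Rfc4* and *Rfc5*), the clamp itself (*Pcna*), and 3 subunits of alternative loaders (*Chtf18*, *Dscc1* and *Atad5*). They were picked by gene symbol, and all 9 were found among the 45792 genes listed and belong to the 15706 with enough counts to test. The cells were forebrain NSCs of newborn pups, with the cells of each animal grown separately in serum-free medium with EGF and FGF. There were 3 groups of 4 libraries: wild type (WT), Ncf1-/- without Igfbp2 (vehicle), and Ncf1-/- given 100 ng/ml recombinant Igfbp2, an insulin-like growth factor-binding protein, for 48 h according to the labels (the study's methods give a lower dose). Ncf1 is a regulatory subunit of NADPH oxidases, enzymes that make reactive oxygen species, and the 2 Ncf1-/- groups share its loss, in a line back-crossed to C57BL/6J. By the study's methods, vehicle and treated cultures were paired from the same 4 Ncf1-/- pups, and treatment began 48 h after plating. The comparisons ask what differs in these cells without Ncf1, and what differs when Igfbp2 is added back.

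During DNA replication PCNA encircles the template and holds the DNA polymerases on it. A loader made of the large subunit Rfc1 and the small subunits Rfc2 to Rfc5 opens the ring and closes it around DNA. The same small subunits also form other loaders with a different large subunit: with Chtf18 (together with Dscc1 and Chtf8), a loader linked to sister chromatid cohesion; with Atad5, the machine that removes PCNA from DNA; and with Rad17, which loads the Rad9-Hus1-Rad1 clamp of the DNA damage checkpoint. In most tissues, transcripts of *Pcna* and of many replication genes rise as cells enter S phase, so dividing progenitors carry more of them than resting or differentiated cells.

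All 9 genes are protein coding, and 4 of them lie on chromosome 5. In GRCm38, the build named in the submitters' processing notes, with GENCODE M21 gene models, *Rfc1* spans chr5:65261850-65335670, *Rfc3* chr5:151642756-151651242 and *Rfc5* chr5:117378103-117389047, all on the minus strand, and *Rfc2* chr5:134581366-134601805 on the plus strand. *Pcna* lies at chr2:132249162-132253314, *Rfc4* at chr16:23113943-23127737, *Chtf18* at chr17:25718926-25727419 and *Dscc1* at chr15:55076099-55090491, on the minus strand, and *Atad5* at chr11:80089400-80135794 on the plus strand. Exons of *Rfc4* and *Eif4a2* share 194 bases on opposite strands, and those of *Rfc5* and *Wsb2* share 499 bases. Also on opposite strands, *Rfc2* shares 952 bases with *Lat2* (2 to 21 counts per library) and *Chtf18* shares 399 with *Gng13* (0 to 5). *Dscc1* shares 199 with the antisense gene *Gm41325*, which is not among the genes counted. Whether the counting used strand is not given in the sources used here, so reads in these shared bases cannot be assigned with certainty. *Wsb2* had 1522 to 3673 counts per library and *Eif4a2* 1848 to 4532. Like *Rfc5*, *Wsb2* was higher than in WT in vehicle (log2 fold change 0.55, edgeR adjusted p = 0.000151) and with Igfbp2 (0.74, edgeR adjusted p = 1.22e-05). *Eif4a2* was lower than in WT in both (-0.23, edgeR adjusted p = 0.0311 and 0.0285). The part of shared reads in the values of *Rfc4*, *Rfc5*, *Rfc2*, *Chtf18* and *Dscc1* was not tested. The *Pcna* pseudogene *Pcna-ps2* had 0 to 3 counts and *Pcna-ps1* had 0 in every library, beside 1062 to 5304 for *Pcna*.

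Because these genes moved together, the promoters of the 7 members in the RefSeq table (all but *Rfc2* and *Dscc1*) were searched on both strands, from 250 bases before to 50 after the annotated start, for words of 3 kinds known from promoters of cell cycle genes. The E2F words (TTTCCCGC, TTTCGCGC, TTTGCCGC or TTTGGCGC) were in 2 of the 7, *Rfc3* and *Atad5*, against 2.26% of the 32851 promoters in the table. The CCAAT word was in 5 of the 7, *Rfc1*, *Rfc3*, *Pcna*, *Chtf18* and *Atad5*, against 37.4%, and it recurred 4 times in that of *Chtf18*. The word TTTGAA of the cell cycle homology region was in 0 of the 7, against 17.9%. These stretches of 30 bases (GRCm38.p6, on the gene's strand) show the words in capitals, with positions counted from 0 at the annotated start, and a CCAAT on the other strand reads ATTGG. They are shown because the first pair holds E2F words, and the other 4 hold CCAAT words of the clamp and of the large subunits *Rfc1* and *Chtf18*. A word in a window is a match of letters, not evidence that a factor binds there.
Rfc3, chr5:151651193-151651222, minus strand, -14 to 15: acgcTTTCGCGCtcGCGGGAAAactctact
Atad5, chr11:80089412-80089441, plus strand, 12 to 41: gctccggacgGCGGGAAAacCCAATtgaca
Pcna, chr2:132253251-132253280, minus strand, -100 to -71: aaccacgggtacgATTGGtccttgaggaga
Rfc1, chr5:65335788-65335817, minus strand, -178 to -149: ctcagatcccaaATTGGgcgtctcccggcc
Chtf18, chr17:25727450-25727479, minus strand, -64 to -35: ccgctggCCAATggcgggcgcctctgggaa
Chtf18, chr17:25727420-25727449, minus strand, -34 to -5: cgtcggctgttgATTGGcggtATTGGaggc

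The libraries held 18201622 to 34086554 expected counts. Levels are given as CPM, counts scaled to the library's size. Sets of marker genes differed between the groups and within WT. The summed level of 10 proliferation markers was 328 to 625 CPM in WT, 1558 to 2018 in vehicle and 1491 to 1782 in Igfbp2-treated libraries. That of 10 oligodendrocyte markers was 2140 to 10925 CPM in WT against 258 to 333 and 279 to 377 in the Ncf1-/- groups. WT library 3 stood apart from the other WT libraries, with the lowest oligodendrocyte sum and a sum of 8 neural stem cell markers of 7838 CPM, against 2342 to 3559 in the other 3 and 7475 to 8219 in the Ncf1-/- libraries. *Vim* and *Fabp7* had the highest levels of these 8, with means of 4040 and 2671.5 CPM in vehicle and 1847 and 1369 in WT. By the test described below, 3 of the 8 were higher in vehicle than in WT (*Nes*, *Hes1* and *Fabp7*). Lower in vehicle were 4, *Sox2*, *Pax6*, *Prom1* and *Msi1*, against 28.9% of all genes higher and 28.2% lower. The 4 Y-linked genes summed to 105 to 116 CPM in all vehicle libraries, to 7.79 to 9.18 CPM in all Igfbp2-treated ones, and to 6.46 CPM in WT library 4 against 107 to 118 in the other WT libraries. The Igfbp2 treatment and this sex-linked difference cannot be told apart, and no vehicle library has the Y-linked level of a treated one, although the study describes paired cultures from the same animals. *Ncf1* had 2 to 7 counts in WT, 2 to 4 in vehicle and 1 in each treated library, at or near the limit of 3 counts that a count of 0 allows, so its loss could not be checked. *Igfbp2* mRNA was at 27.4 to 228 CPM in WT, 636 to 768 in vehicle and 1016 to 1278 in treated libraries, and the added protein leaves no reads.

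*Rfc1*, the large subunit of replication factor C, was lowest in WT and had its highest mean CPM in the Igfbp2-treated group. In TPM, a scale that also divides by transcript length, its mean was highest in vehicle (12.4, against 9.92 with Igfbp2 and 8.095 in WT). Its level was 48.4, 50.8, 50.4 and 53.7 CPM in the 4 WT libraries, 61.5, 74.8, 72.0 and 90.5 in vehicle, and 75.3, 83.2, 92.9 and 78.9 in Igfbp2-treated libraries. No WT library reached the lowest Ncf1-/- library, while the ranges of vehicle and treated libraries overlapped. *Rfc1* was the steadiest of the 9 genes among WT libraries, with a coefficient of variation of 4.24%, and the most variable among vehicle libraries, at 16.04%.

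The small subunits, which every one of these loaders shares, had larger fold differences between WT and Ncf1-/- cells than *Rfc1* did. For *Rfc2* this did not hold once transcript length was allowed for, as described below. In vehicle against WT its centred log2 fold change was 0.78, against 0.84 for *Rfc1*. With Igfbp2 against WT, subtracting the median of the length class left 0.75 for *Rfc2*, against 0.88 for *Rfc1*. *Rfc2* was at 33.4, 31.7, 27.02 and 28.1 CPM in WT, 57.2, 59.6, 58.5 and 55.5 in vehicle, and 59.9, 52.9, 55.0 and 49.3 with Igfbp2. *Rfc3* was at 11.6, 11.2, 9.55 and 10.2 CPM in WT, 27.4, 29.2, 27.2 and 27.4 in vehicle, and 27.6, 26.3, 31.4 and 22.9 with Igfbp2. For both genes, vehicle and treated libraries overlapped and WT lay below them. *Rfc4* was at 8.19, 8.26, 5.51 and 5.12 CPM in WT, 22.3, 22.7, 21.4 and 22.9 in vehicle, and 20.9, 19.5, 19.6 and 15.9 with Igfbp2. *Rfc5* was at 19.3, 17.4, 11.2 and 12.9 CPM in WT, 45.7, 46.9, 44.9 and 46.04 in vehicle, and 43.4, 36.5, 40.3 and 30.7 with Igfbp2. For *Rfc4* and *Rfc5* the 3 groups did not overlap at all, with the treated libraries between WT and vehicle.

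*Pcna*, the clamp, was the most abundant of the set on both scales. It was at 81.3, 72.5, 50.6 and 59.1 CPM in WT, 173, 175, 178 and 198 in vehicle, and 159.98, 141, 164 and 128 with Igfbp2. Again all treated libraries lay between WT and vehicle. On the TPM scale, which also divides by transcript length, its mean was 35.0 in WT, 102 in vehicle and 60.1 with Igfbp2, against 0.59 to 19.2, 2.67 to 40.7 and 1.29 to 27.8 over the means of the other 8 genes. The TPM of a library has a fixed sum, and the 7SL RNA genes *Rn7s1* and *Rn7s2*, whose RNA belongs to the signal recognition particle, took 48.7 to 57.7% of it in treated libraries, against 42.9 to 45.6% in vehicle and 41.9 to 48.96% in WT.

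The alternative loader subunits showed the same order of groups. *Chtf18* was at 6.09, 7.02, 4.36 and 4.45 CPM in WT, 20.997, 19.3, 20.5 and 20.1 in vehicle, and 15.0068, 17.6, 18.8 and 13.4 with Igfbp2. *Dscc1*, its partner in the cohesion-linked loader, was the scarcest of the set at 18 to 135 counts per library, with 1.501, 1.13, 0.574 and 1.002 CPM in WT, 3.75, 4.79, 4.68 and 5.04 in vehicle, and 3.43, 2.82, 3.44 and 2.06 with Igfbp2. For both genes the groups did not overlap and the treated libraries lay between the other groups. *Atad5*, the unloader, was at 15.7, 14.9, 9.41 and 12.4 CPM in WT, 22.7, 25.5, 23.6 and 31.7 in vehicle, and 20.046, 24.2, 29.5 and 20.1 with Igfbp2. Its vehicle and treated libraries overlapped, and both lay above WT.

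**Figure D1:**
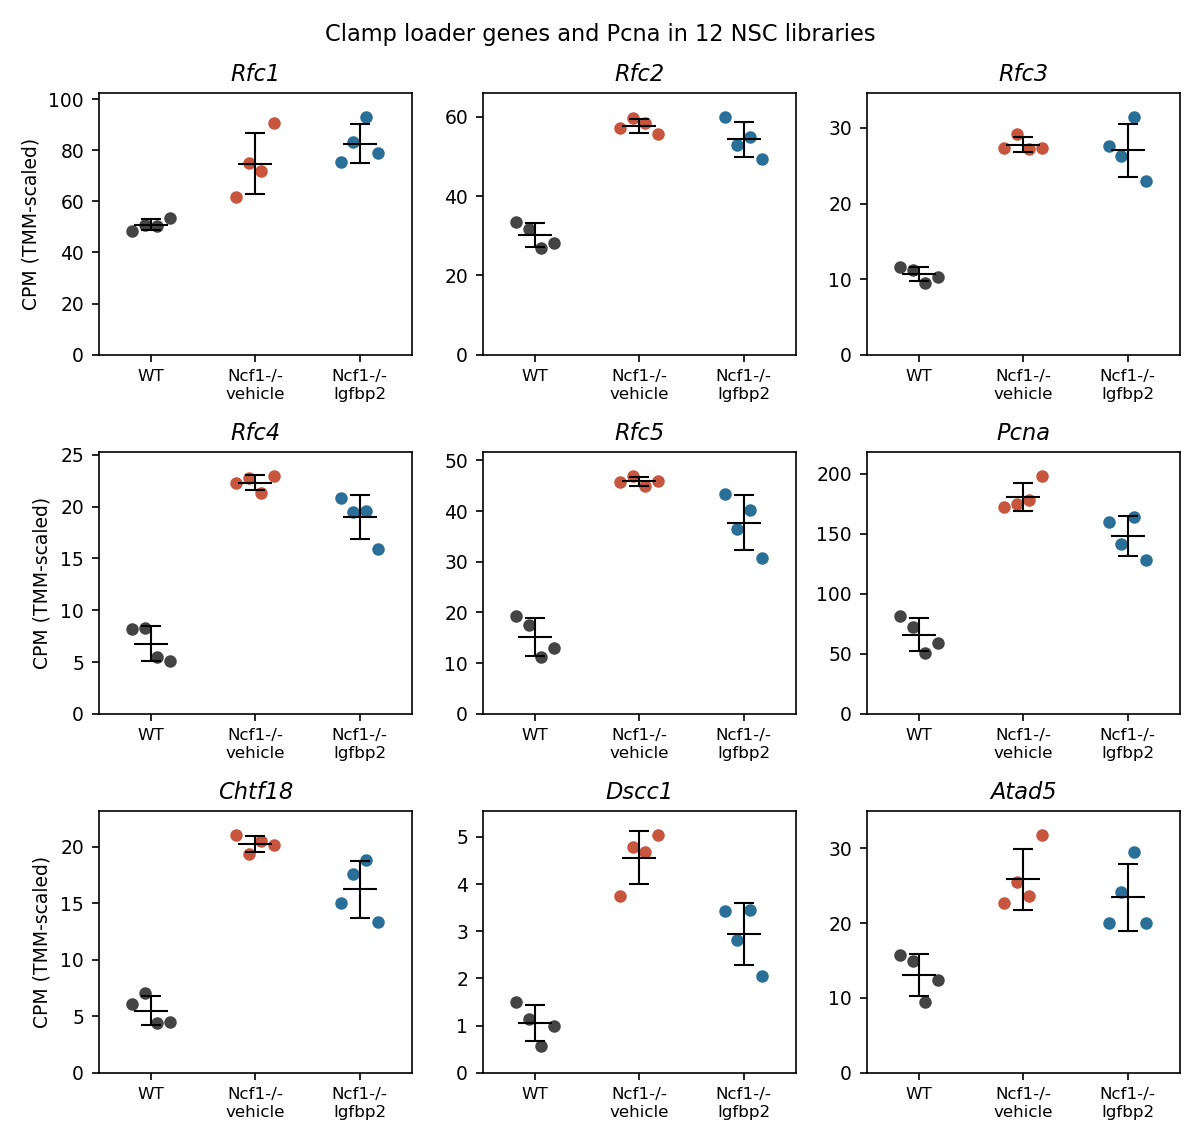
CPM (counts scaled to library size with TMM factors) of each of the 9 genes in the 12 libraries. Points are libraries in replicate order, horizontal lines are group means and bars are the SD (n = 4), and every y axis starts at 0. WT lies below both Ncf1-/- groups in all 9 panels, and the treated libraries lie wholly between WT and vehicle for *Rfc4*, *Rfc5*, *Pcna*, *Chtf18* and *Dscc1*. Over all genes tested, vehicle libraries lay wholly above WT in 26.1%, and treated libraries wholly below vehicle in 14.7%. The shares with treated libraries wholly above WT, and wholly between WT and vehicle, were not counted.

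The group means of CPM put WT lowest for all 9 genes. The order was WT, Igfbp2-treated, vehicle for 8 genes and WT, vehicle, Igfbp2-treated for *Rfc1*. The genes were tightest among vehicle libraries, with a median coefficient of variation of 3.55%, against 12.98% with Igfbp2 and 21.6% in WT. Within a group the 9 genes deviated together in some libraries. The same counts were not made over all genes, so a shift of these genes cannot be told apart from one of the whole library. In WT library 3 all 9 were below their WT mean, by 0.31 on average on the log2 scale, and in WT library 1 the average was 0.25 above it, with 8 of 9 genes higher. In Igfbp2-treated library 3 all 9 were above the group mean (0.17 on average), and in library 4 all 9 were below it (-0.23).

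All 9 genes rose in Ncf1-/- vehicle NSCs compared with WT. The largest rises were those of the cohesion-linked loader subunits, *Dscc1* at 4.42-fold (log2 fold change 2.14 ± 0.26 SE, edgeR adjusted p = 1.67e-05) and *Chtf18* at 3.71-fold (1.89 ± 0.16, edgeR adjusted p = 6.83e-07). Among the small subunits, *Rfc4* rose 3.31-fold (1.73 ± 0.15), *Rfc5* 3.03-fold (1.60 ± 0.16), *Rfc3* 2.61-fold (1.38 ± 0.10) and *Rfc2* 1.92-fold (0.94 ± 0.08). *Pcna* rose 2.75-fold, from 65.9 ± 13.7 to 181 ± 11.6 CPM (SD, n = 4; edgeR adjusted p = 1.86e-06). *Atad5* rose 1.99-fold (0.99 ± 0.17). The smallest rise, before any centring on transcript length, was that of *Rfc1* at 1.47-fold (0.56 ± 0.11), from 50.8 ± 2.16 to 74.7 ± 11.98 CPM. Fold changes and p-values here came from edgeR's quasi-likelihood test, adjusted by Benjamini-Hochberg over all 15706 genes, and an adjusted p below 0.05 counted as a call. The adjusted p-values of the 9 genes ran from 2.66e-07 to 0.000671.

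The whole transcriptome differed between these groups: 28.9% of genes tested were called higher and 28.2% lower. All 9 clamp and loader genes were higher, and in 9 of 9 no vehicle library overlapped a WT library, against 26.1% of all genes. The median log2 fold change was 1.46 over the 9 genes and 0.02 over all genes. All 9 calls held when each library was left out in turn, and without WT library 3 the members' median lay 1.32 above that of all genes, against 1.44 with it. The proliferation markers moved the same way as the 9 genes, with 10 of 10 called higher (median 2.19), and the oligodendrocyte markers the opposite way, with 10 of 10 lower (median -5.15). Among the other marker lists, 7 of 8 astrocyte markers were lower (median -1.67), 5 of 8 neuron markers were lower (-0.93), and neural stem cell markers were mixed, with 3 higher and 4 lower of 8 (0.27). Of 7 mesenchymal and vascular markers tested 4 were higher and 2 lower, though their summed level was lower in vehicle (13.5 to 16.6 CPM) than in WT (16.4 to 31.1), and of 3 microglia markers tested 2 were higher, on a summed level of 1.28 to 3.77 CPM over all libraries, with *Aif1*, *Cx3cr1*, *Tmem119* and *Ptprc* at 3 counts or fewer. In bulk libraries, fewer cells of a type and less RNA per cell cannot be told apart, and the part of cell makeup in these results was not tested.

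**Figure D2:**
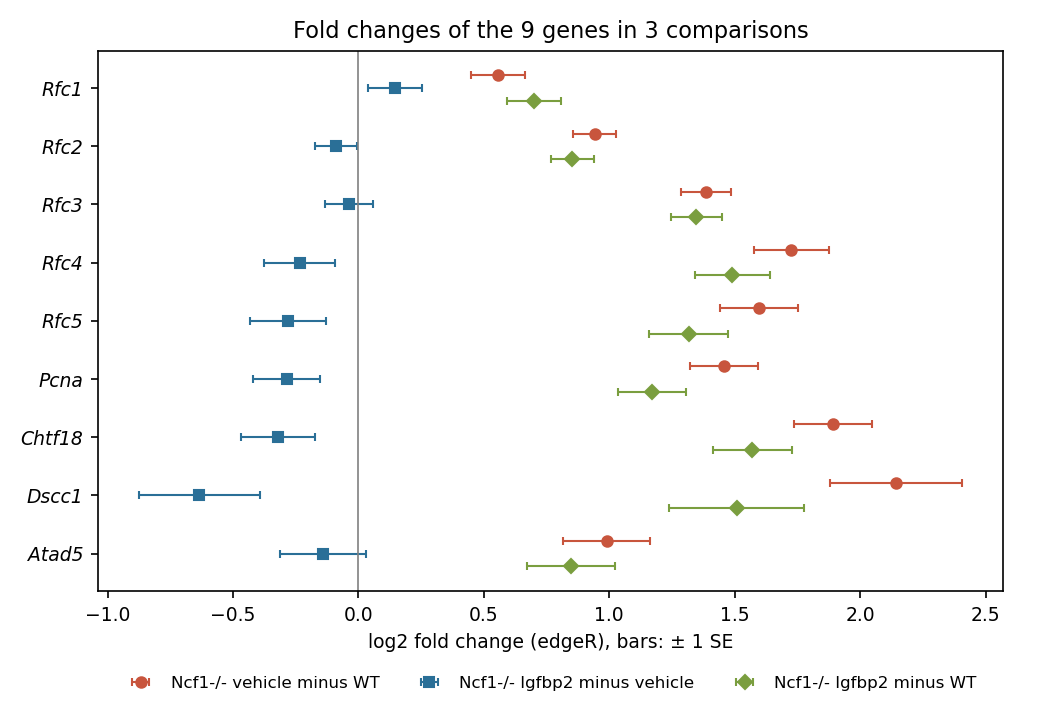
Log2 fold change of each gene in the 3 comparisons from edgeR, with bars of 1 SE (4 libraries per group). The points against WT run from 0.56 to 2.14, all above 0, and those of Igfbp2 against vehicle from -0.63 to 0.14. The comparisons share libraries, so the points of one gene are not independent.

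With Igfbp2, no member passed the test against vehicle, and 8 of the 9 lay below it. The differences were -0.63 ± 0.24 for *Dscc1* (log2 fold change ± SE), -0.32 ± 0.15 for *Chtf18*, -0.29 ± 0.13 for *Pcna*, -0.28 ± 0.15 for *Rfc5* and -0.23 ± 0.14 for *Rfc4*, the 5 genes whose libraries did not overlap. The others were nearer to 0, at -0.14 ± 0.17 for *Atad5*, -0.09 ± 0.08 for *Rfc2*, -0.04 ± 0.10 for *Rfc3* and 0.14 ± 0.11 for *Rfc1*. In CPM, *Pcna* went from 181 ± 11.6 to 148 ± 16.8 and *Dscc1* from 4.56 ± 0.565 to 2.94 ± 0.653 (SD, n = 4). The edgeR adjusted p-values ran from 0.0714 for *Dscc1* to 0.800 for *Rfc3*, and 2 genes, *Dscc1* and *Chtf18*, had an unadjusted p below 0.05.

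Over all genes tested, 14.2% were called higher and 10.7% lower with Igfbp2, and 14.7% had treated libraries wholly below the vehicle libraries, beside 5 of the 9 members. The count of members called depended on how the libraries were fitted and scaled. When edgeR was fitted to the 8 Ncf1-/- libraries alone, without the WT libraries, 5 members were called lower (*Rfc4*, *Rfc5*, *Pcna*, *Chtf18* and *Dscc1*; adjusted p 0.00881 to 0.497 over the 9), and the same 5 with replicate number as a block (adjusted p 0.0174 to 0.424). Of all genes in these fits, 18.3% and 17.0% were called lower. DESeq2 called 1, *Dscc1* (adjusted p = 0.0439), beside 11.7% of all genes lower. Scaling by library totals called 7 lower but moved the median of all genes to -0.23, and 5258 genes of the whole table (33.5%) were then called lower and 648 higher, against 1685 and 2238 with TMM factors. Relative to the median of all genes, the members' median was -0.27 under both scalings, and without Igfbp2-treated library 4, in which all 9 genes lay below their group mean, it was -0.20. *Rfc1* lay above vehicle with TMM factors (0.14) and below it with library totals (-0.13), and neither value passed the test.

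Compared with WT, Igfbp2-treated Ncf1-/- NSCs still held higher levels of all 9 genes. The rises ran from 1.62-fold for *Rfc1* (log2 fold change 0.70 ± 0.11) to 2.97-fold for *Chtf18* (1.57 ± 0.16), with 2.25-fold for *Pcna* (1.17 ± 0.14). The members' median was 1.32 and the edgeR adjusted p-values ran from 3.26e-07 to 0.000987, while 31.6% of all genes were called higher and 30.8% lower. Proliferation markers were again all higher (10 of 10, median 1.93) and oligodendrocyte markers all lower (10 of 10, median -5.20). Of the other markers, 6 of 8 astrocyte genes were lower and 1 higher (median -1.44), 5 of 8 neuron genes lower and 1 higher (-1.27), 4 of 7 mesenchymal and vascular genes higher and 2 lower (2.36), and all 4 Y-linked genes lower (-3.44). Neural stem cell markers were again mixed, with 3 higher and 4 lower of 8 (0.15), and 2 of 3 microglia markers tested were higher (0.68). This comparison shares its WT libraries with the first and its treated libraries with the second, so the 3 sets of values are not independent. With limma on log2(TPM + 1), 7 of the 9 passed, and *Rfc1* (0.24, adjusted p = 0.308) and *Atad5* (0.27, adjusted p = 0.190) did not. On that scale 1969 of all genes (12.5%) were called higher and 6890 lower, and the median of all genes was -0.25. The same 7 passed on log2(TPM + 0.1), where the median of all genes was -0.40 and the share of all genes called was not counted. With the most abundant genes left out and TPM rescaled, limma called all 9 higher. On that scale 3530 of all 15706 genes were called higher and 6336 lower, and the median of all genes was -0.18.

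The balance between the loaders was compared through ratios of TPM values within a library, which do not depend on the scaling between libraries. There were 6 ratios and 3 comparisons, 18 exact two-sided permutation tests in all, and with 4 libraries against 4 the smallest exact p is 0.0286, reached only where the groups do not overlap. Because 12 of the 18 tests reached it, Benjamini-Hochberg adjustment turned it into 0.0429. That adjusted value depends on how many of the tests reach the smallest p, so it does not grade single ratios. *Rfc1* was 0.733, 0.792, 1.01 and 1.06 times the mean of its 4 small partners in WT, 0.447, 0.523, 0.508 and 0.681 in vehicle, and 0.545, 0.680, 0.691 and 0.697 with Igfbp2. Both Ncf1-/- groups lay below WT (log2 difference -0.74 and -0.45, adjusted exact p = 0.0429), and they overlapped with each other (0.29, adjusted exact p = 0.110).

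Of the 3 other large subunits set over *Rfc1*, *Chtf18* gained most. The ratio of *Chtf18* to *Rfc1* was 0.218, 0.242, 0.168 and 0.173 in WT, 0.667, 0.487, 0.523 and 0.437 in vehicle, and 0.428, 0.394, 0.378 and 0.321 with Igfbp2. The log2 difference was 1.40 ± 0.18 (SE) for vehicle against WT, -0.47 ± 0.16 for Igfbp2 against vehicle and 0.93 ± 0.16 for Igfbp2 against WT, and none of the 3 groups overlapped (adjusted exact p = 0.0429 each). As a share of the TPM of the 4 large subunits *Rfc1*, *Chtf18*, *Atad5* and *Rad17*, *Chtf18* made up 10.2 ± 1.46% in WT, 23.9 ± 2.86% in vehicle and 19.6 ± 1.68% with Igfbp2 (SD, n = 4). *Rfc1* made up 51.2 ± 2.93%, 45.6 ± 2.80% and 51.8 ± 1.79%, *Rad17* 30.2 ± 2.19%, 20.3 ± 0.396% and 19.2 ± 1.19%, and *Atad5* 8.41 ± 1.59%, 10.2 ± 0.613% and 9.38 ± 0.921%.

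*Atad5* over *Rfc1* was 0.166 ± 0.0395 in WT, 0.224 ± 0.0115 in vehicle and 0.181 ± 0.0178 with Igfbp2, higher in vehicle than in either other group (log2 difference 0.46 against WT and -0.31 for Igfbp2 against vehicle, adjusted exact p = 0.0429). *Rad17* over *Rfc1* fell at each step, from 0.592 ± 0.0666 to 0.448 ± 0.0375 and 0.371 ± 0.0297, with no overlap (adjusted exact p = 0.0429 each). *Pcna* was 3.86 ± 0.305 times the mean of the small subunits in WT, 4.47 ± 0.440 times in vehicle and 3.95 ± 0.131 times with Igfbp2. The vehicle group did not overlap either of the others (adjusted exact p = 0.0429 each), though the first of these did not pass when the geometric mean of the small subunits was used (log2 difference 0.07, adjusted exact p = 0.514). *Dscc1* and *Chtf18*, partners in one loader, kept a ratio of 0.372 ± 0.115, 0.420 ± 0.0663 and 0.340 ± 0.0430, and none of its 3 differences passed (log2 difference 0.21, -0.30 and -0.09, adjusted exact p 0.110 to 0.743). Because 3 of the 6 ratios have *Rfc1* below the line, they are not independent of each other.

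**Figure D3:**
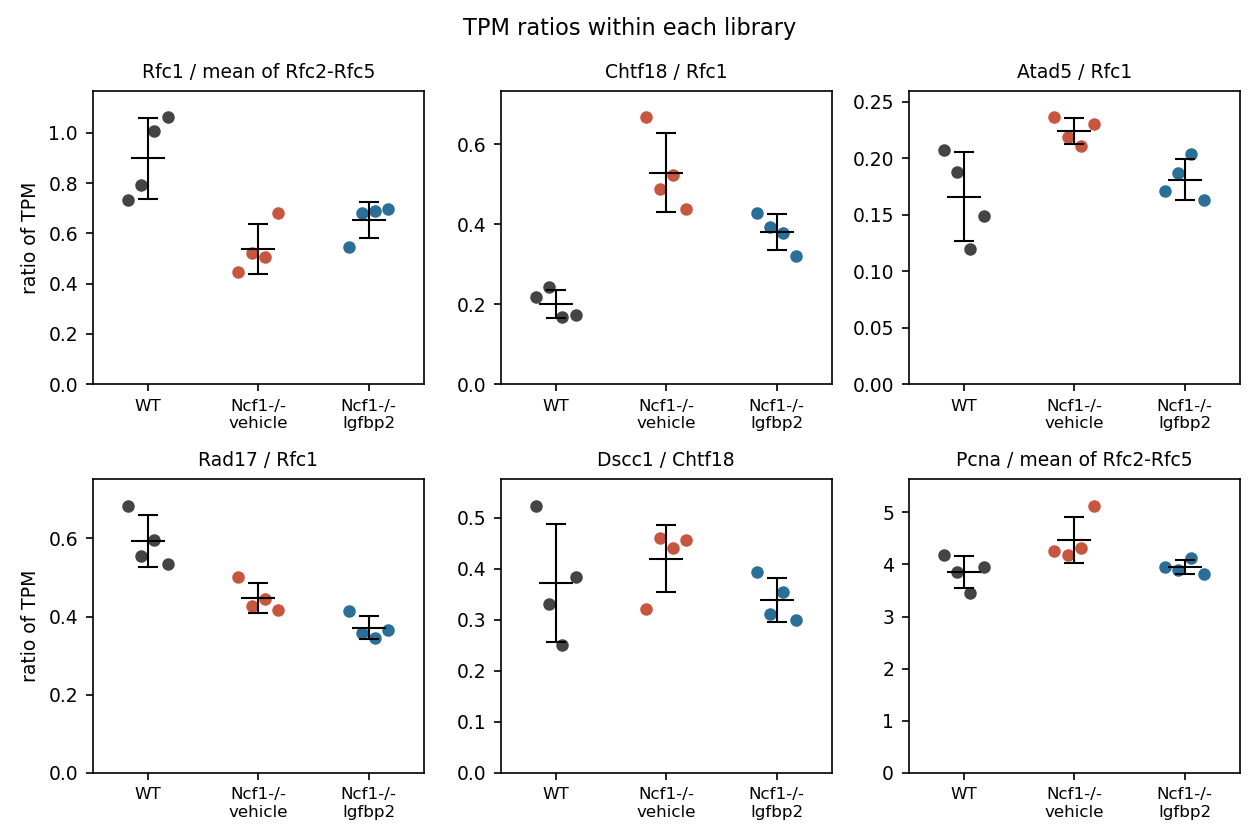
Ratios of TPM values within each library. Points are libraries in replicate order, lines are group means and bars are the SD (n = 4), with y axes starting at 0. *Chtf18* over *Rfc1* separates the 3 groups, from 0.200 in WT to 0.529 in vehicle, while *Dscc1* over *Chtf18* overlaps in all of them.

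These ratios compare genes of different length, and the fold changes of the whole table moved with length. The effective transcript length, which RSEM uses for TPM, was 4547 bases for *Rfc1* and 7084 for *Atad5*, against 1023 to 2387 for the other 7 genes. That of *Rfc5* varied from 1429 to 2479 between libraries, so its TPM depends on how RSEM shared its reads among transcripts. Comparing vehicle with WT, the median log2 fold change was 0.26 for the 2217 genes under 1000 bases and fell class by class to -0.49 for the 823 genes of 6000 bases or more. With Igfbp2 it was 0.07 in the shortest class and 0.25 in the longest. When each gene was centred on the median of its length class, all 9 genes stayed higher in vehicle than in WT, at 0.78 for *Rfc2* to 1.99 for *Dscc1*, with *Rfc1* at 0.84 and *Atad5* at 1.51, and 0 were called with Igfbp2.

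The lower ratio of *Rfc1* to its small partners did not hold after this centring (log2 difference -0.31, exact p = 0.0857 for vehicle against WT, and -0.18, exact p = 0.371 for Igfbp2 against WT). *Chtf18* over *Rfc1* kept the groups apart in all 3 comparisons (1.11, -0.32 and 0.79), and so did *Rad17* over *Rfc1* (-0.69, -0.12 and -0.81). In all, 9 of the 18 comparisons remained without overlap at the smallest exact p of 0.0286, but adjusted over the 18 tests this became 0.0571, so none passed. The part of length in these ratios beyond this centring was not tested.

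**Figure D4:**
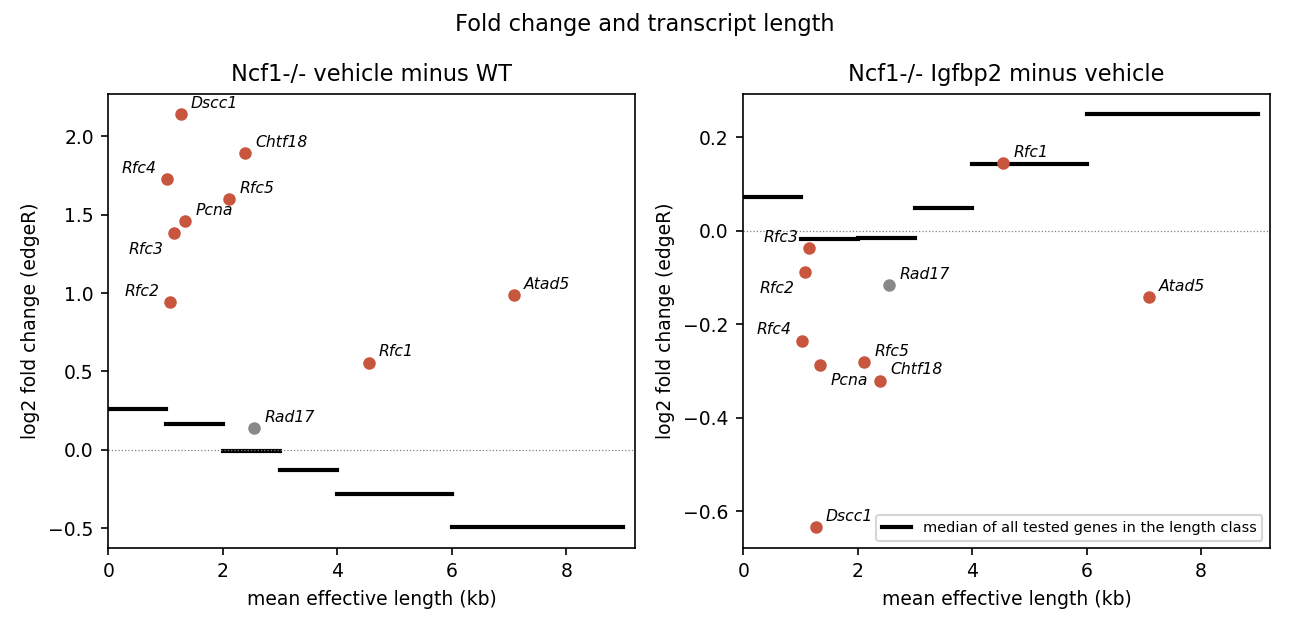
Log2 fold change against mean effective length in kb for the 9 genes and *Rad17* (grey), with black lines at the median of all tested genes in each length class. The class medians fall with length in vehicle against WT, from 0.26 to -0.49, and all 9 genes lie above the line of their class. Classes are drawn to 9 kb, and the last one holds all longer genes.

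Other genes of PCNA's working cycle were read from 5 lists. Of the partners of the alternative loaders (*Chtf8* and the Rad17 loader with its clamp, 6 of 7 tested), only *Hus1*, a ring subunit of the checkpoint clamp, was called in vehicle against WT, lower at 29.7 against 38.2 CPM (log2 fold change -0.36 ± 0.10, edgeR adjusted p = 0.00755). *Rad17* was at 18.6 and 16.9 CPM in vehicle and WT (0.14, edgeR adjusted p = 0.186), and *Chtf8*, the third partner of *Chtf18* and *Dscc1*, gave -0.03 (edgeR adjusted p = 0.777). With library totals instead of TMM factors, 3 of these genes were called higher and none lower, beside 6024 of all 15706 genes higher and 3159 lower. The direction within this list thus depends on the scaling.

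Subunits of the replicative DNA polymerases, alpha with its primase, which starts each strand, and delta and epsilon, which work with PCNA, were higher in vehicle for 11 of 12 genes (median log2 fold change 1.11). *Pole2*, a subunit of polymerase epsilon, rose from 2.67 to 9.73 CPM (1.88), and *Prim1*, the catalytic primase subunit, from 8.89 to 29.6 CPM (1.74), whereas *Pold4*, the smallest subunit of polymerase delta, gave 0.03 (edgeR adjusted p = 0.921). The genes that mature Okazaki fragments or assemble chromatin on PCNA were higher in 9 of 9 (median 1.42), led by *Chaf1b*, a subunit of the histone chaperone CAF-1, from 5.81 to 29.5 CPM (2.35), and *Pclaf*, a small PCNA-binding protein, from 19.7 to 93.1 CPM (2.25). Of 10 genes of the replication fork and of sister chromatid cohesion 8 were higher (median 1.32), with *Esco2*, a cohesin acetyltransferase that acts in S phase, at 3.72 and 22.7 CPM (2.62) and *Clspn*, a checkpoint mediator at the fork, at 13.2 and 37.7 CPM (1.52).

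In the ubiquitin cycle of PCNA, 8 of 12 genes were higher and 1 lower (median 0.26). *Rad18*, the ligase that adds the first ubiquitin to PCNA, rose from 6.18 to 17.9 CPM (1.54), and *Usp1*, the protease that takes it off, from 33.3 to 76.6 CPM (1.20). *Shprh*, one of the ligases that lengthen the chain, fell from 99.5 to 63.5 CPM (log2 fold change -0.65). Called shares of 28.9% higher and 28.2% lower over all genes are the background for these counts.

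With Igfbp2 few of these genes were called, where edgeR called 14.2% of all genes higher and 10.7% lower. No gene of the alternative loader partners and none of the 9 Okazaki and chromatin genes passed edgeR's test against vehicle (median -0.08 and -0.24). In each of these lists 2 genes had an unadjusted p below 0.05, DESeq2 called 0 in both, and limma on log2(TPM + 1) called 4 and 8, on a scale where 39.2% of all genes were called lower and the median of all genes was -0.30. Among the polymerases *Pold4* rose from 9.57 to 17.9 CPM (log2 fold change 0.91, edgeR adjusted p = 0.0140), and *Prim1* (-0.48, edgeR adjusted p = 0.0225) and *Pole3* (-0.31, edgeR adjusted p = 0.0281) fell. In the ubiquitin cycle, *Polh* (0.49) and *Polk* (0.32), translesion polymerases, rose, while *Hltf* (-0.32), another chain-lengthening ligase, and *Rev1* (-0.19), a scaffold for translesion polymerases, fell. Of the fork and cohesion genes only *Esco1*, the other cohesin acetyltransferase, was called (-0.53, edgeR adjusted p = 0.0114). With library totals the calls of all 5 lists moved towards lower: 4 of the loader partners, 6 Okazaki and chromatin genes, 8 ubiquitin cycle genes and 4 fork genes were then called, all lower, and 5 polymerase genes were lower and 1 higher. The whole table moved the same way under that scaling, with 33.5% of all genes called lower and a median of -0.23. Beside these, 0 of 10 proliferation markers were called by edgeR (median -0.18, 1 at an unadjusted p below 0.05, 0 by DESeq2 and 7 by limma on log2(TPM + 1)), 4 mesenchymal and vascular markers were higher (median 1.11, on a summed level of 36.7 to 46.2 CPM against 13.5 to 16.6), and all 4 Y-linked genes were lower. Of 8 neuron markers 2 fell, *Dcx* (log2 fold change -0.83, edgeR adjusted p = 0.0113) and *Tubb3* (-0.61, edgeR adjusted p = 0.0114), and of 8 neural stem cell markers 1 rose, *Msi1* (0.42, edgeR adjusted p = 0.0210). By edgeR 0 of 10 oligodendrocyte, 0 of 8 astrocyte and 0 of 3 microglia markers tested were called, with 2, 1 and 0 at an unadjusted p below 0.05 and 1, 1 and 0 called by DESeq2.

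The genes whose profile over the 12 libraries lay closest to the clamp loader were sought among 11164 other genes whose mean was 5 CPM or more, by the root mean square difference of centred log2 CPM. Closest to the mean of *Rfc2* to *Rfc5* was *Dnajc9*, a histone co-chaperone (difference 0.0433), with 33.6 CPM in WT, 90.5 in vehicle and 80.7 with Igfbp2. It was followed by the kinase gene *Pask* (0.0694), *Lsm2* (0.0823), of an RNA-binding ring, *Ran* (0.0942), the GTPase of nuclear transport, and *Exosc8* (0.104), of the RNA exosome. Closest to *Pcna* were *Vrk1*, a kinase of chromatin and nuclear envelope proteins (0.0714), *Exosc8* (0.0783), *Rad54l* (0.0885), of homologous recombination, *Pask* (0.0916) and *Dut* (0.0960), the enzyme that keeps uracil out of DNA. The libraries share depth and scaling, so these values describe likeness over these 12 libraries alone.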

How the data were processed

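Ribosomal RNA-depleted libraries of 12 NSC cultures were aligned by the authors with Bowtie2 to GRCm38 and quantified with RSEM (versions are not given in the sources used here). The deposited files give expected counts and TPM per gene, written to 2 decimals, and 15.9% of all expected counts, or 33.8% of those above 0, are not exactly whole. The merged table deposited by the authors holds a score, TPM multiplied by a gene's number of transcripts (within 0.011 TPM per transcript in 100% of 257083 values above 0), and was used for gene names only. Expected counts were rounded. Genes passing filterByExpr (15706) were fitted with edgeR 4.0.16 (R 4.3.3), TMM factors and 3 group means over 12 libraries. CPM values use TMM-scaled library sizes. Ratios of TPM were tested with SciPy 1.17.1. Alternatives were DESeq2 1.42.0, limma 3.58.1 on log2(TPM + 1) and on log2(TPM + 0.1), and the same after leaving out the 100 most abundant genes and rescaling, other filters and scalings, a replicate block, and each library left out. Centring on length class was chosen after seeing the data. The fits were tested on simulated data.

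The study tested TPM values, whereas a count test was used here. The members and lists were chosen with earlier results of these data known. Besides the 9 members, the genes named are, in each of 5 lists, the 2 strongest called rises and the 2 strongest called falls of vehicle against WT and of Igfbp2 against vehicle, and the 5 nearest profiles. *Rad17*, *Chtf8*, the genes that overlap members, the 7SL genes, the markers *Dcx* and *Tubb3*, the neural stem cell markers, and *Pold4* in vehicle against WT were named outside this rule, after their values were seen. Replicates are separate cultures. No pair of libraries agreed within sampling noise (the closest pair, vehicle 2 and 3, had a chi-square of 4.40 per degree of freedom). The study's methods pair vehicle and treated cultures by animal but fitted the groups without a block. The main fit here followed them, with a block on replicate number as an alternative. Same-numbered libraries correlated at -0.0673 to 0.0328 and differed in Y-linked genes. Protein sequences were not analysed here.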

Additional observations from a re-analysis of the deposited data

Results flagged for a closer look

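Of 45 groups of 4 libraries examined (27 for single genes and 18 for ratios), 4 held a library far from the other 3 by Dixon's criterion, which chance alone meets in about 5% of groups. *Rfc3* was highest in vehicle library 2, at 29.2 CPM. *Rfc1* over the mean of *Rfc2* to *Rfc5* was lowest in Igfbp2-treated library 1, at 0.545. *Dscc1* over *Chtf18* was lowest in vehicle library 1, at 0.321. *Pcna* over the mean of *Rfc2* to *Rfc5* was highest in vehicle library 4, at 5.13.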

How the results depend on the processing

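All 9 genes were called higher in vehicle than in WT under every alternative that tested them, and 8 of 8 where a minimum mean of 5 CPM removed *Dscc1*. Leaving out each library in turn gave 9 to 9 calls in both comparisons with WT and 0 to 0 for Igfbp2 against vehicle. For Igfbp2 against vehicle, the count of 0 became 7 with library totals (33.5% of all genes lower), 7 with limma on log2(TPM + 1) (39.2%) and 7 on log2(TPM + 0.1) (40.5%). It became 3 on rescaled TPM (14.2%), 1 with DESeq2 (11.7%), 5 in the 8 Ncf1-/- libraries alone (18.3%) and 5 with the replicate block (17.0%), all members lower. It stayed 0 with no filter, with the 5 CPM minimum and with length-class centring. The median of all genes was -0.30 on log2(TPM + 1) and -0.07 on rescaled TPM. With library totals, calls in the loader partner list went from 1 to 3 (vehicle against WT), 0 to 4 (Igfbp2 against vehicle) and 1 to 2 (Igfbp2 against WT), and for Igfbp2 against vehicle from 3 to 6 for polymerases, 0 to 6 for Okazaki and chromatin genes, 4 to 8 for the ubiquitin cycle and 1 to 4 for fork genes. Library totals also changed the genes called higher and lower over the whole table to 6024 and 3159 for vehicle against WT (4545 and 4433 with TMM), to 648 and 5258 for Igfbp2 against vehicle (2238 and 1685) and to 4198 and 5475 for Igfbp2 against WT (4964 and 4837). Of the 18 ratio tests 12 passed, 12 with counts per effective length, 11 with the geometric mean and 0 after length-class centring. Of the values of single genes and ratios, 606 were counted as unchanged. These include the ratios recomputed without 1 library, which had no test and so could not gain or lose a call. The 606 is therefore not a count of tests that held. Of the other values, 35 gained a call, 17 lost it and 5 changed sign without a call on either side. The 5 that changed sign were *Rfc1* in Igfbp2 against vehicle (0.14) with library totals (-0.13), on log2(TPM + 1) (-0.29) and on log2(TPM + 0.1) (-0.32), *Rfc3* there (-0.04, and -0.16 to 0.0034 with each library left out), and *Pcna* over the small subunits in Igfbp2 against WT (0.04, and -0.079 with the geometric mean). Among the 606, ratios recomputed without 1 library, which were not tested, changed sign for *Dscc1* over *Chtf18* (0.09 without WT library 1) and *Pcna* over the small subunits (-0.018 without WT library 3), both in Igfbp2 against WT. *Dscc1* had the lowest counts of the 9 genes, 18 to 135 per library, and 4 libraries per group limit the exact tests.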
